A study of Capra hircus with 6 samples.

Results

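The genes described are 10 feedback regulators of mitogen-activated protein kinase (MAPK) signalling: the dual-specificity phosphatases DUSP1, DUSP4, DUSP5, DUSP6 and DUSP10, the Sprouty genes SPRY1, SPRY2 and SPRY4, and the Sprouty-related genes SPRED1 and SPRED2. They were found by gene symbol in a deposited expression table, where all 10 were among the 16599 genes with values and among the 12665 genes tested. The RNA was from goat (Capra hircus) cells named mGSCs-I-SB, given the cell type spermatogonial stem cells and grown with 10% fetal bovine serum. The 6 libraries came from 3 lines, 2 libraries per line: shUCHL1 (UCHL1 knockdown), shHSPA8 (HSPA8 knockdown) and shCON (control hairpin, genotype given as WT). UCHL1 is a ubiquitin C-terminal hydrolase and HSPA8 is the constitutive cytosolic HSP70 chaperone. All 3 carry the same cell line name, and neither the number of hairpins per gene nor the number of clones per line is given in the labels.

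In MAPK signalling, growth factor receptors switch on RAS, which starts a relay of RAF, MEK and ERK kinases, while stress and cytokines act mainly through the JNK and p38 kinases. ERK induces its own brakes: DUSP proteins remove the activating phosphates from MAP kinases, Sprouty proteins restrain the signal between receptor and RAF, and SPRED proteins bring neurofibromin to the membrane to turn RAS off. Because several of these genes are transcribed when ERK is active, their messenger RNA is widely read beside immediate early genes such as EGR1. In the testis, GDNF and FGF signals reach spermatogonial stem cells partly through this pathway. Kinase activity was not measured here.

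Library depth lay between 15710529 and 16417262 counts. Levels are in CPM, counts relative to the TMM-scaled library total, unless called FPKM (fragments also relative to transcript length), and a mean ± SD has n = 2. "Rose", "fell" and "called" refer to an adjusted p under 0.05 in edgeR's quasi-likelihood test over all tested genes. The targeted UCHL1 stood at 94.3 and 97.7 CPM in the shUCHL1 libraries and at 386 and 334 CPM in the shHSPA8 libraries, against 405 and 451 CPM in shCON. HSPA8 stood at 5252 and 5345 CPM in shUCHL1 and at 2631 and 2528 CPM in shHSPA8, against 4016 and 4112 CPM in shCON. Each targeted transcript was thus lower in its own knockdown line. HSPA8 was called higher in shUCHL1 (log2 fold change 0.38, SE 0.07, edgeR adjusted p = 0.0129), but its edgeR adjusted p was 0.15 and 0.175 without shUCHL1 replicate 1 and 2 (range from 0.00132). The labels do not tell whether both libraries of a line stem from separate cultures; the p-values therefore measure only how far these libraries differ, and that difference may be technical.

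The labelled cell type was checked against markers. Of 19 germ cell and spermatogonial markers, 8 carried values. Over the 6 libraries DDX4 averaged 1.24, RET 0.720, GFRA1 0.546 and KIT 0.0315 CPM, while UCHL1, itself targeted here, averaged 295, THY1 120, ITGA6 85.0 and ID4 6.08 CPM. All 12 markers of peritubular myoid cells and fibroblasts averaged at least 1 CPM, led by COL3A1 at 9281 CPM. Their summed level was 28823 to 29506 CPM in shUCHL1 and 35007 to 35234 CPM in shHSPA8, against 23902 to 25487 CPM in shCON. In shUCHL1, 3 of those 12 markers rose and 4 fell, and in shHSPA8 5 rose. Leukocyte markers summed to 174 to 188 CPM in shUCHL1 and 298 to 302 CPM in shHSPA8, against 497 to 502 CPM in shCON; these sums came mostly from LCP1, while PTPRC, which defines leukocytes, averaged 0.0735 CPM. Sertoli cell markers, of which 7 of 10 carried values, summed to 136 CPM in both shUCHL1 libraries and to 91.9 to 92.7 CPM in shHSPA8, against 180 to 188 CPM in shCON, with 2 called lower in each knockdown line. Leydig cell markers, of which 4 of 7 carried values, summed to 25.3 to 30.6 CPM in shUCHL1 and 21.9 to 22.1 CPM in shHSPA8, against 15.1 to 16.9 CPM in shCON, with 2 called higher in shUCHL1 and 1 in shHSPA8. Whether these marker shifts have a part in the results below was not tested, and in bulk RNA fewer cells of a type and less RNA per cell cannot be told apart.

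Per transcript length, the 10 genes spanned a wide range of levels, shown in deposited FPKM. DUSP1, a nuclear phosphatase that acts on p38, JNK and ERK, was the most abundant in every line, at 76.8 ± 1.99 FPKM in shUCHL1 and 88.2 ± 1.59 FPKM in shHSPA8, against 84.1 ± 1.44 FPKM in shCON. Averaged over the 6 libraries, its FPKM stood at the 91.1 percentile of all tested genes. DUSP4, a nuclear phosphatase related to DUSP1, was the least abundant, at 0.310 ± 0.0283 FPKM in shUCHL1 and 0.115 ± 0.00707 FPKM in shHSPA8, against 0.02 and 0.08 FPKM in the shCON libraries, and stood at the 1.21 percentile.

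Between these extremes the order in FPKM was SPRY2, SPRED1, DUSP6, SPRED2, SPRY4, DUSP5, DUSP10 and SPRY1 in shUCHL1, where no neighbours overlapped between libraries. In shHSPA8 it was DUSP6, SPRY2, SPRED1, SPRY4, SPRED2, DUSP5, DUSP10 and SPRY1, and SPRED1 and SPRY4 overlapped. In shCON it was SPRY2, DUSP6, SPRY4, SPRED1, SPRED2, DUSP5, DUSP10 and SPRY1, where SPRY2 overlapped DUSP6 and SPRY4 overlapped SPRED1. DUSP6, the cytosolic phosphatase specific for ERK, changed place between the lines: in shUCHL1 it averaged 11.1 ± 0.134 FPKM and stood below DUSP1, SPRY2 and SPRED1, in shHSPA8 it had 19.4 and 21.0 FPKM and stood below DUSP1 alone, and in shCON it averaged 13.2 ± 0.566 FPKM. The scaled counts per kilobase gave the same order in each line. Their lengths were derived from the deposited counts and FPKM, so this is not a separate check.

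**Figure D1:**
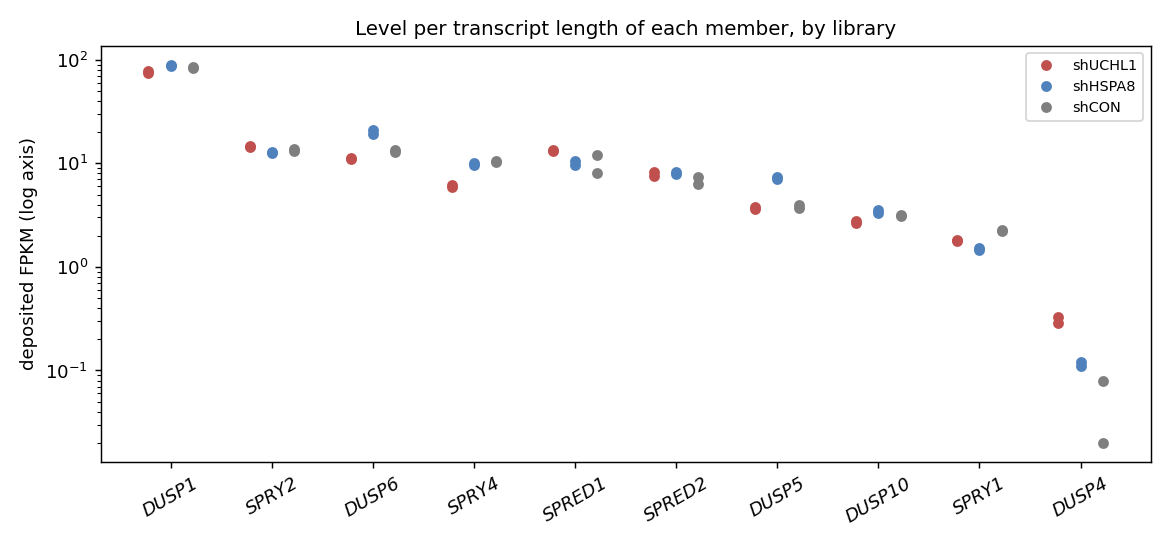
Deposited FPKM of each gene on a log axis, with 1 point per library in shUCHL1, shHSPA8 and shCON, genes ordered by their shCON mean. DUSP1 lies near the top of the range in all 6 libraries and DUSP4 under 0.4 FPKM in all 6.

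The first comparison asked what went with the UCHL1 knockdown. In shUCHL1 cells SPRY4 fell 1.82-fold and the scarce DUSP4 rose, and the other 8 genes did not pass the test. So 2 of 10 were called, where 15.7% of all tested genes were (8.54% higher and 7.15% lower). DUSP4 entered the test only because it was high in shUCHL1, so the call of SPRY4 is the one that can be read against that share. The libraries of shUCHL1 and shCON did not overlap for 8 of the 10 genes, where 56.5% of all tested genes did not overlap. DUSP4 is among these 8 and cannot be read against that share either. With DUSP4 included, the median log2 fold change was -0.17 over the 10 genes and 0.0094 over all tested genes. The median size of change, whatever its sign, was 0.30 and 0.20.

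SPRY4, a Sprouty protein induced by FGF and other growth factors, had 26.6 and 25.3 CPM in shUCHL1, against 47.0 and 47.4 CPM in shCON. Both shUCHL1 libraries lay far below both shCON libraries, and the replicates of each line lay close together. The log2 fold change was -0.86 (SE 0.10) with an edgeR adjusted p of 0.00179. The call was kept in all 15 alternative settings, with log2 fold changes from -0.91 to -0.78 and an adjusted p of at most 0.0361. In the authors' deposited table the log2 ratio of shUCHL1 to shCON is -0.89 with a p-value of 1.99e-07.

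DUSP4 was counted 27 and 24 times in shUCHL1, against 2 and 7 times in shCON. It passed the low-count filter through shUCHL1 alone, so that a tested DUSP4 had to be high there, and its fold rests on 9 counts summed over shCON. In CPM these were 1.65 and 1.44 in shUCHL1 and 0.127 and 0.428 in shCON. The fitted log2 fold change was 2.43 (SE 0.44, edgeR adjusted p = 0.0118), and over the alternatives it ran from 1.81 to 3.53. Leaving out shUCHL1 replicate 1 gave an edgeR adjusted p of 0.0876 and leaving out shUCHL1 replicate 2 one of 0.063, in a range of 0.00886 to 0.0876 over 14 alternatives.

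The remaining phosphatases all lay lower in shUCHL1 than in shCON without passing the test. DUSP6 had 28.6 and 28.1 CPM in shUCHL1, against 36.5 and 34.1 CPM in shCON, a log2 fold change of -0.32 (SE 0.10, edgeR adjusted p = 0.0769). Its groups did not overlap. With a length correction chosen after seeing the data, the edgeR adjusted p for DUSP6 was 0.0344, the lowest of a range up to 0.361. DUSP1 had 131 and 136 CPM in shUCHL1, against 156 and 152 CPM in shCON (log2 fold change -0.20, SE 0.08, edgeR adjusted p = 0.148). DUSP10, which prefers JNK and p38 over ERK, had 6.17 and 6.48 CPM in shUCHL1, against 7.72 and 7.59 CPM in shCON (log2 fold change -0.28, SE 0.14, edgeR adjusted p = 0.241). DUSP5, a nuclear phosphatase specific for ERK, had 7.58 and 7.85 CPM in shUCHL1, against 8.17 and 8.75 CPM in shCON (log2 fold change -0.13, SE 0.13, edgeR adjusted p = 0.557). For these 4 genes both shUCHL1 libraries lay below both shCON libraries.

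Of the other Sprouty and SPRED genes, SPRY1 had 5.93 and 5.88 CPM in shUCHL1, against 7.85 and 7.59 CPM in shCON (log2 fold change -0.39, SE 0.14, edgeR adjusted p = 0.109). In mice SPRY1 restrains RET signalling in the developing kidney. SPRY2 had 20.8 and 21.3 CPM in shUCHL1, against 20.2 and 20.9 CPM in shCON, and these overlapped (log2 fold change 0.04, SE 0.10). SPRED2 had 34.7 and 32.0 CPM in shUCHL1, against 32.7 and 27.8 CPM in shCON, again with overlap (log2 fold change 0.14, SE 0.12).

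SPRED1, whose loss in humans causes a disorder related to neurofibromatosis, had 62.9 and 61.2 CPM in shUCHL1, against 59.1 and 38.1 CPM in shCON. The shCON libraries differed from each other 1.55-fold, a replicate gap at the 95.5 percentile of all tested genes in that line. The log2 fold change was 0.35 (SE 0.20, edgeR adjusted p = 0.293). Without shCON replicate 1 it was 0.68 with an edgeR adjusted p of 0.0153, and over all alternatives the adjusted p ran from 0.0153 to 0.768. The level of SPRED1 in shUCHL1 relative to shCON therefore depended on which control library was read.

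**Figure D2:**
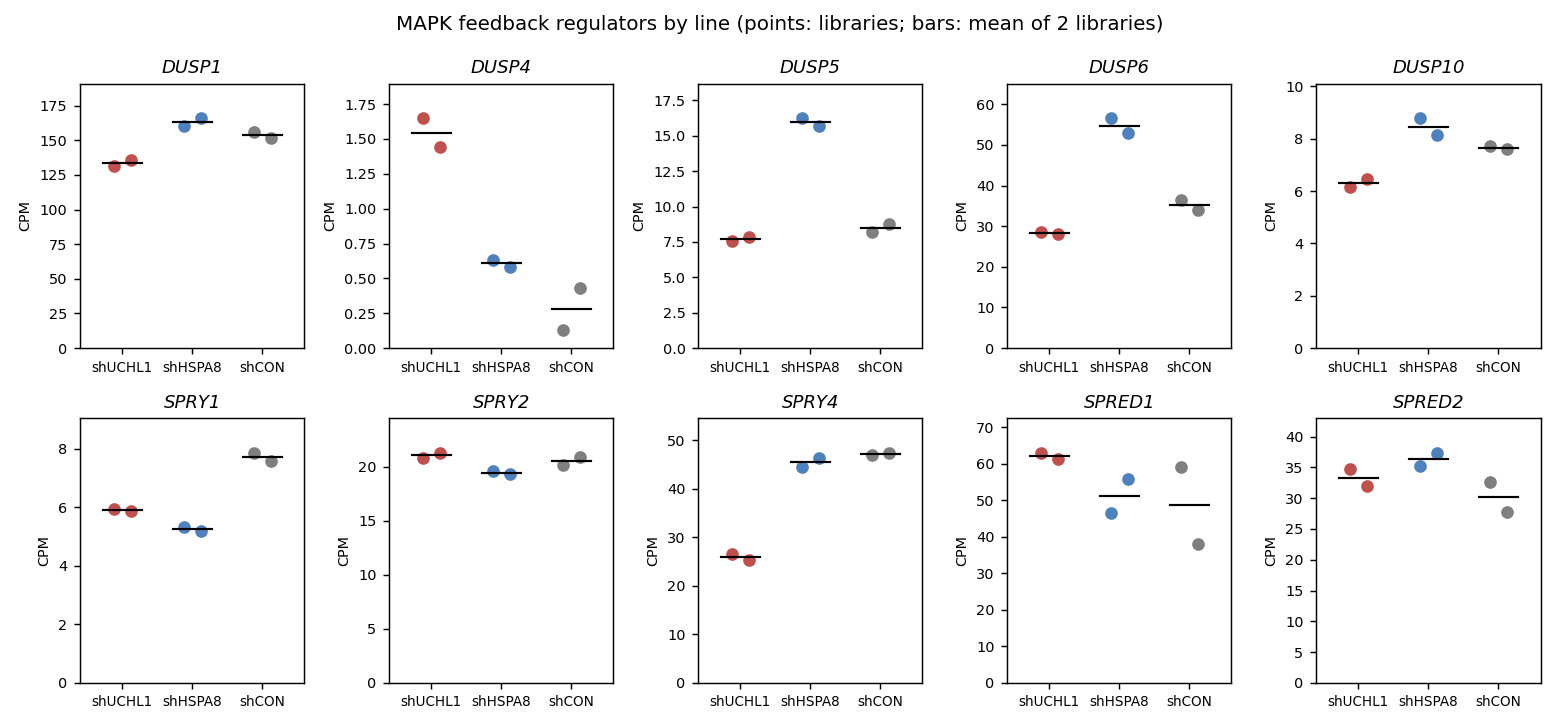
CPM of each of the 10 genes on a linear axis from 0, with 1 point per library and a bar at the mean of the 2 libraries, in shUCHL1, shHSPA8 and shCON from left to right. SPRY4 is low in shUCHL1, DUSP5 and DUSP6 are high in shHSPA8, and the shCON points of SPRED1 lie apart at 59.1 and 38.1 CPM.

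The second comparison asked what went with the HSPA8 knockdown. In shHSPA8 cells the ERK-specific phosphatases DUSP5 and DUSP6 rose 1.89-fold and 1.55-fold, and SPRY1 fell 1.47-fold. So 3 of 10 were called, where 14.7% of all tested genes were (8.66% higher and 6.02% lower). The libraries of shHSPA8 and shCON did not overlap for 9 of the 10 genes, where 51% of all tested genes did not overlap. The median log2 fold change was 0.11 over the 10 genes and -0.0032 over all tested genes, and the median size of change was 0.21 over both.

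DUSP5 had 16.2 and 15.7 CPM in shHSPA8, against 8.17 and 8.75 CPM in shCON. Both shHSPA8 libraries lay far above both shCON libraries. The log2 fold change was 0.92 (SE 0.12) with an edgeR adjusted p of 0.00336, and all 15 alternatives kept the call, with values from 0.85 to 0.97 and an adjusted p of at most 0.0237. In the authors' deposited table its log2 ratio of shHSPA8 to shCON is 0.91, with a p-value of 0.000445.

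DUSP6 had 56.6 and 52.8 CPM in shHSPA8, against 36.5 and 34.1 CPM in shCON. The groups were again well apart. The log2 fold change was 0.63 (SE 0.10) with an edgeR adjusted p of 0.00607, and the 15 alternatives kept the call, with values from 0.58 to 0.68 and an adjusted p of at most 0.0478.

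SPRY1 had 5.31 and 5.17 CPM in shHSPA8, against 7.85 and 7.59 CPM in shCON. The groups did not overlap, but the counts behind them were low, 164 summed over shHSPA8 and 248 over shCON. The log2 fold change was -0.56 (SE 0.14) with an edgeR adjusted p of 0.0403, close to the threshold. It lost its call in 9 of 15 alternatives: DESeq2 (adjusted p = 0.222), the replicate block (edgeR adjusted p = 0.109), the fit of only the 4 libraries compared (edgeR adjusted p = 0.112) and without any 1 of the 6 libraries. The edgeR adjusted p was 0.113 and 0.111 without shUCHL1 replicate 1 and 2, 0.149 and 0.175 without shHSPA8 replicate 1 and 2, and 0.0695 and 0.0502 without shCON replicate 1 and 2. Over all alternatives the log2 fold change stayed between -0.58 and -0.54. The authors' deposited table gives SPRY1 a p-value of 0.0776.

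The other 7 genes did not pass the test in shHSPA8. DUSP1 had 160.0 and 166 CPM in shHSPA8, against 156 and 152 CPM in shCON (log2 fold change 0.08, SE 0.08), and DUSP10 8.79 and 8.15 CPM, against 7.72 and 7.59 CPM in shCON (0.15, SE 0.14). DUSP4 was counted 10 and 9 times in shHSPA8, against 2 and 7 times in shCON (fitted log2 fold change 1.10, SE 0.53, edgeR adjusted p = 0.228). SPRY4 had 44.6 and 46.3 CPM in shHSPA8, against 47.0 and 47.4 CPM in shCON (log2 fold change -0.05, SE 0.09). So the gene with the clearest fall in shUCHL1 differed little from shCON in shHSPA8. SPRY2 had 19.6 and 19.3 CPM in shHSPA8, against 20.2 and 20.9 CPM in shCON (log2 fold change -0.08, SE 0.11). SPRED2 had 35.3 and 37.4 CPM in shHSPA8, against 32.7 and 27.8 CPM in shCON (log2 fold change 0.26, SE 0.12, edgeR adjusted p = 0.19), and SPRED1 46.4 and 55.7 CPM in shHSPA8, between the shCON values of 59.1 and 38.1 CPM (0.07, SE 0.20). The sign of the SPRED1 difference changed with the libraries used, to -0.07 without shHSPA8 replicate 2 and -0.21 without shCON replicate 2.

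**Figure D3:**
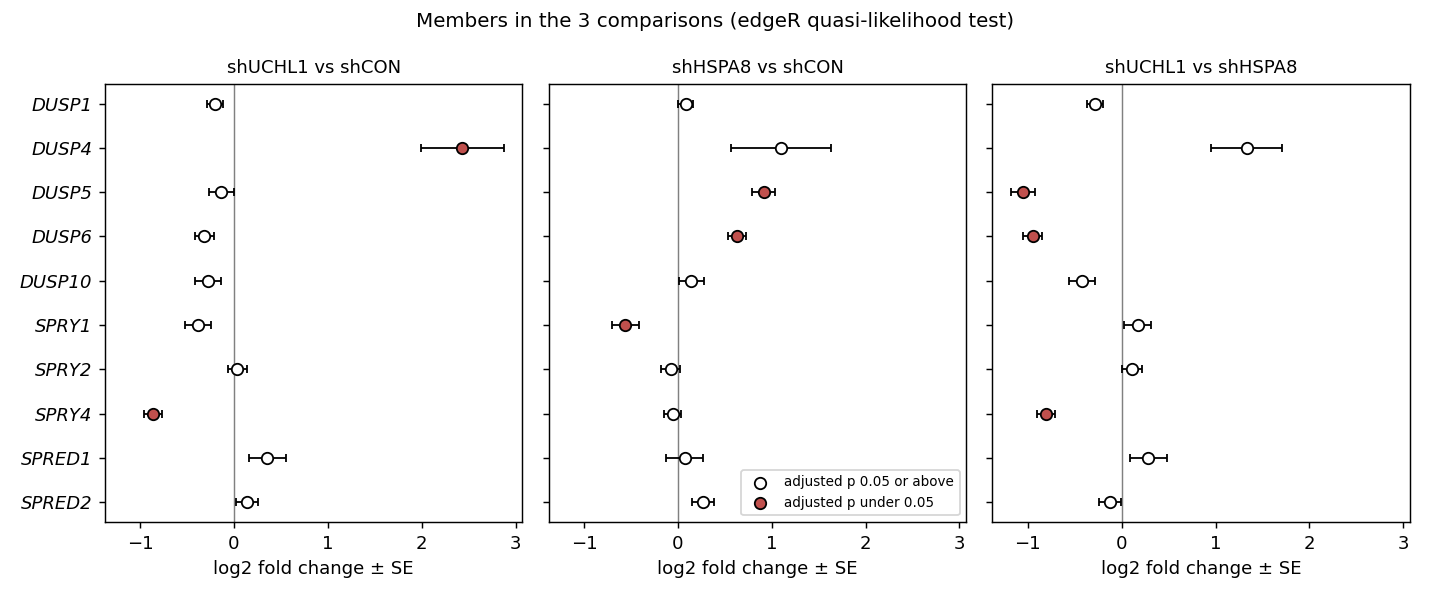
Log2 fold change of each gene in the 3 comparisons, with bars of 1 SE; filled points have an edgeR adjusted p under 0.05. SPRY4 is called in shUCHL1 and not in shHSPA8, DUSP5 and DUSP6 the other way round, and all 3 are called between the knockdown lines.

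Both comparisons above share the shCON libraries. The direct comparison of the knockdown lines does not use them for its fold change and tests the difference between the lines itself. DUSP5 was 2.07-fold, DUSP6 1.93-fold and SPRY4 1.75-fold lower in shUCHL1 than in shHSPA8. So 3 of 10 were called, where 14.6% of all tested genes were, and all 3 were lower in shUCHL1, a direction in which 8.35% of all tested genes were called, against 6.2% called higher. None of the 10 was called higher in shUCHL1 by edgeR or DESeq2, and 1 was higher at an unadjusted edgeR p under 0.05. The groups did not overlap for any of the 10 genes, where 65.7% of all tested genes did not overlap. DUSP4, tested only because it was high in shUCHL1, cannot be read against that share. With DUSP4 included, the median log2 fold change was -0.20 over the 10 genes and 0.018 over all tested genes.

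DUSP6 had a log2 fold change of -0.95 (SE 0.10, edgeR adjusted p = 0.00207) between shUCHL1 and shHSPA8, and kept its call in all 15 alternatives with an adjusted p of at most 0.0439. DUSP5 had a log2 fold change of -1.05 (SE 0.12, edgeR adjusted p = 0.00312), and without shUCHL1 replicate 1 its edgeR adjusted p was 0.0568, the highest of its range from 0.000134. SPRY4 had a log2 fold change of -0.81 (SE 0.10, edgeR adjusted p = 0.00303). Leaving out shUCHL1 replicate 1 or 2 gave SPRY4 an edgeR adjusted p of 0.0522 or 0.0603, in a range of 5.4e-06 to 0.0603. DUSP1 (log2 fold change -0.29, SE 0.08, edgeR adjusted p = 0.059) and DUSP4 (1.33, SE 0.38, edgeR adjusted p = 0.0574) lay just outside the threshold. DUSP1 was called without shCON replicate 1 or 2 (edgeR adjusted p = 0.0286 and 0.0305, in a range of 0.0286 to 0.407), and so was DUSP4 (edgeR adjusted p = 0.0266 and 0.0275, in a range of 0.0216 to 0.303). DUSP10 had a log2 fold change of -0.42 (SE 0.14, edgeR adjusted p = 0.0847), SPRY1 0.17 (SE 0.14), SPRY2 0.11 (SE 0.11), SPRED1 0.28 (SE 0.20) and SPRED2 -0.12 (SE 0.12).

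Read over the 3 lines at once, DUSP1, DUSP5, DUSP6 and DUSP10 shared an order that DUSP4 and the Sprouty and SPRED genes among the 10 did not have. For DUSP1, DUSP5, DUSP6 and DUSP10 both shHSPA8 libraries lay above both shCON libraries and both shUCHL1 libraries lay below them. This order held for 4 of the 10 genes, where 3.96% of all tested genes had it. It was noticed after the values were seen. The size of the spread differed widely among these 4, from a log2 difference between shUCHL1 and shHSPA8 of -0.29 for DUSP1 to -1.05 for DUSP5. SPRY4 and SPRY1 were highest in shCON, SPRY2 and SPRED1 highest in shUCHL1 and SPRED2 highest in shHSPA8 by their means. None of the further DUSP genes read below had the order of DUSP1, DUSP5, DUSP6 and DUSP10. Of those further genes, only DUSP7 and DUSP14 had both shUCHL1 libraries below both shCON libraries. In shHSPA8, DUSP7 overlapped shCON and DUSP14 lay below it.

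For each gene called against shCON, the 3 genes with the most similar profile were taken by the root-mean-square distance of mean-centred log2 CPM over the 6 libraries, among 9718 candidates (9719 for DUSP4) with a gene name and at least 5 CPM on average. For SPRY4 these were TMEM43 (distance 0.032), SYNPO (0.038) and LARS2 (0.056), where the median distance of all candidates was 0.42. For DUSP5 they were S1PR1 (0.044), CCND2 (0.069) and LACTB (0.070), and for DUSP6 SEPHS2 (0.064), CSF1 (0.070) and ERG (0.074), against medians of 0.49 and 0.43. For SPRY1 they were ARHGEF5 (0.021), TNS3 (0.029) and NEIL3 (0.036), against a median of 0.28. The profile of DUSP4 was matched less closely, by ARHGAP4 (0.17), ENO4 (0.30) and TMCC3 (0.30), against a median of 0.97. DUSP4 itself lay under the 5 CPM floor in every line, so genes as scarce as DUSP4 were not among its candidates. The 6 points behind each distance come from only 3 lines.

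The other members of these families were read next, the phosphatases DUSP2, DUSP3, DUSP7, DUSP8, DUSP9, DUSP14, DUSP16, DUSP18, DUSP19, DUSP22 and DUSP23 with SPRY3 and SPRED3. In shUCHL1 3 of these 13 rose and 1 fell (30.8% called, where 15.7% of all tested genes were), and in shHSPA8 3 rose (23.1% called, where 14.7% of all tested genes were). Both shares include DUSP9 and DUSP22, which passed the low-count filter only through the knockdown lines, where they are high. The shares can therefore not be read against the background. Apart from DUSP9 and DUSP22, only SPRY3 rose in either line. DESeq2 called 1 higher and 1 lower in shUCHL1, and 2 higher in shHSPA8. None fell in shHSPA8 by edgeR or DESeq2, and 1 was lower at an unadjusted edgeR p under 0.05. SPRY3, the Sprouty gene outside the 10, had 5.01 and 6.0 CPM in shUCHL1 and 9.67 and 10.7 CPM in shHSPA8, against 3.55 and 3.12 CPM in shCON. It rose 3.06-fold in shHSPA8 (log2 fold change 1.61, SE 0.17, edgeR adjusted p = 0.00117) and kept that call in all 15 alternatives. In shUCHL1 its log2 fold change of 0.72 (SE 0.18, edgeR adjusted p = 0.0371) lost its call in 8 of 15 alternatives, with an adjusted p of 0.0248 to 0.272. They include leaving out shUCHL1 replicate 1 or 2 (edgeR adjusted p = 0.12 and 0.272), shHSPA8 replicate 1 or 2 (edgeR adjusted p = 0.0575 and 0.0583) and shCON replicate 2 (edgeR adjusted p = 0.105). Between the knockdown lines SPRY3 was lower in shUCHL1 by a log2 fold change of -0.89 (SE 0.16, edgeR adjusted p = 0.0136), a call lost without shUCHL1 replicate 1 or 2 (edgeR adjusted p = 0.153 and 0.0772) or shHSPA8 replicate 2 (edgeR adjusted p = 0.0702), in a range from 0.00376.

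DUSP7, a cytosolic ERK phosphatase like DUSP6, had 23.0 and 23.1 CPM in shUCHL1 and 33.4 and 34.8 CPM in shHSPA8, against 32.7 and 39.2 CPM in shCON. It fell in shUCHL1 (log2 fold change -0.64, SE 0.12, edgeR adjusted p = 0.0134), but leaving out shUCHL1 replicate 1 or 2 gave an edgeR adjusted p of 0.128 or 0.118. DUSP9 was counted 28 and 26 times in shUCHL1 and 28 and 19 times in shHSPA8, against 3 and 8 times in shCON. DUSP22 was counted 14 and 12 times in shUCHL1 and 19 and 14 times in shHSPA8, against 2 and 5 times in shCON. Both were called higher in either knockdown line, but like DUSP4 they are scarce and passed the low-count filter only through the lines where they are high, so their calls add nothing to the count above. In shUCHL1 the DUSP9 call was lost without shUCHL1 replicate 1 or 2 (edgeR adjusted p = 0.0962 and 0.0756), and in shHSPA8 without shHSPA8 replicate 1 (0.107) or shCON replicate 1 (0.0639). The DUSP22 call in shUCHL1 was lost in 10 of 14 alternatives: without any 1 of the 6 libraries (edgeR adjusted p = 0.0605 to 0.247), with no low-count filter (0.0671), with the replicate block (0.0908), in the 4-library fit (0.0588) and by DESeq2 (0.23). In shHSPA8 it was lost in 4 of 14: without shHSPA8 replicate 1 or 2 (0.109 and 0.0529) or shCON replicate 1 (0.0769), and by DESeq2 (0.094).

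Other brakes on receptor and RAS signalling moved in both directions. Of 31 tested, 4 rose and 3 fell in shUCHL1 (22.6% called, where 15.7% of all tested genes were), and 7 rose and 4 fell in shHSPA8 (35.5%, where 14.7% of all tested genes were). ERRFI1, a feedback inhibitor of EGF receptors, had 82.9 and 83.0 CPM in shUCHL1 and 87.2 and 95.8 CPM in shHSPA8, against 181 and 168 CPM in shCON. It fell 2.11-fold in shUCHL1 (log2 fold change -1.07, SE 0.09, edgeR adjusted p = 0.000713) and 1.91-fold in shHSPA8 (-0.93, SE 0.09, edgeR adjusted p = 0.000913), and between the knockdown lines it did not pass the test (-0.14, SE 0.09). The pseudokinase genes TRIB1 (2.10-fold) and TRIB3 (2.02-fold) rose in shUCHL1, and TRIB1 rose 1.92-fold in shHSPA8 too. In shHSPA8 RGS2, an inhibitor of G protein signalling, rose 4.49-fold, to 119 and 116 CPM, against 28.1 and 24.2 CPM in shCON. RGS16 (2.82-fold) and LRIG1 (1.88-fold), which promotes breakdown of ERBB receptors, rose in shHSPA8 as well. The receptor phosphatase gene PTPRJ (1.69-fold) and the RAS GTPase-activating gene DAB2IP (1.68-fold) fell there. Each of these calls was kept in all alternatives, with edgeR adjusted p of at most 0.039. TRIB2, of the same family, rose 2.05-fold in shUCHL1 (edgeR adjusted p = 0.00426, and 0.0527 without shUCHL1 replicate 2) and 2.03-fold in shHSPA8 (edgeR adjusted p = 0.00407).

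The genes of the cascade itself, adaptors, exchange factors and RAS GTPases as well as kinases, were called at shares nearer to the background. Of 30 tested, 3 rose and 3 fell in shUCHL1 (20% called, where 15.7% of all tested genes were) and 1 rose and 2 fell in shHSPA8 (10%, where 14.7% of all tested genes were). MAPK3, which encodes ERK1, had 38.1 and 39.6 CPM in shUCHL1 and 58.9 and 52.2 CPM in shHSPA8, against 60.8 and 72.3 CPM in shCON. Its fall in shUCHL1 (log2 fold change -0.78, SE 0.12, edgeR adjusted p = 0.00646) lost its call when shUCHL1 replicate 1 or 2 was left out (edgeR adjusted p = 0.0807 and 0.0617). RPS6KA2, an RSK kinase activated by ERK, rose 2.70-fold in shHSPA8 (log2 fold change 1.43, SE 0.15, edgeR adjusted p = 0.0011). In shUCHL1 it rose 1.87-fold (edgeR adjusted p = 0.00918), a call lost without shUCHL1 replicate 1 or 2 (edgeR adjusted p up to 0.0943). RASGRF1, a RAS exchange factor, fell 1.60-fold in shHSPA8 (log2 fold change -0.68, SE 0.08, edgeR adjusted p = 0.00215). Of 26 tested JNK and p38 cascade genes, 3 rose and 1 fell in shUCHL1 (15.4% called, near the 15.7% of all tested genes), and 3 rose and 3 fell in shHSPA8 (23.1%, beside 14.7%). MAP3K5 (3.19-fold and 3.58-fold) and MAP3K8 (2.63-fold and 2.67-fold) rose in shUCHL1 and in shHSPA8. Of 20 nuclear effectors of ERK such as ELK1, 2 rose in shUCHL1 (10% called) and 1 rose in shHSPA8 (5%), below the 15.7% and 14.7% of all tested genes, among them ETS2, 1.64-fold in shUCHL1 and 1.38-fold in shHSPA8. The ETS2 call in shHSPA8 was lost in 6 of 15 alternatives. These were the replicate block, the fit of only the 4 libraries compared, and leaving out any 1 shUCHL1 or shHSPA8 library.

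Immediate early and delayed ERK target genes were called at higher shares than the cascade genes, and than the 15.7% of all tested genes in shUCHL1 and 14.7% in shHSPA8. All lists were chosen with earlier results of these data known, so these shares are a description and not a test. Of 29 tested immediate early genes, 6 rose and 5 fell in shUCHL1 (37.9% called), and 11 rose and 4 fell in shHSPA8 (51.7% called). Of 28 tested delayed targets, 9 rose and 5 fell in shUCHL1 (50% called), and 13 rose and 3 fell in shHSPA8 (57.1% called). Those that rose include MMP1, counted 9 and 8 times in shCON. It passed the low-count filter through the knockdown lines, so its calls cannot be read against the background share. Between the knockdown lines, 3 immediate early genes were higher and 10 lower in shUCHL1 (44.8% called), and 1 delayed target was higher and 8 lower (32.1%), where 14.6% of all tested genes were called.

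**Figure D4:**
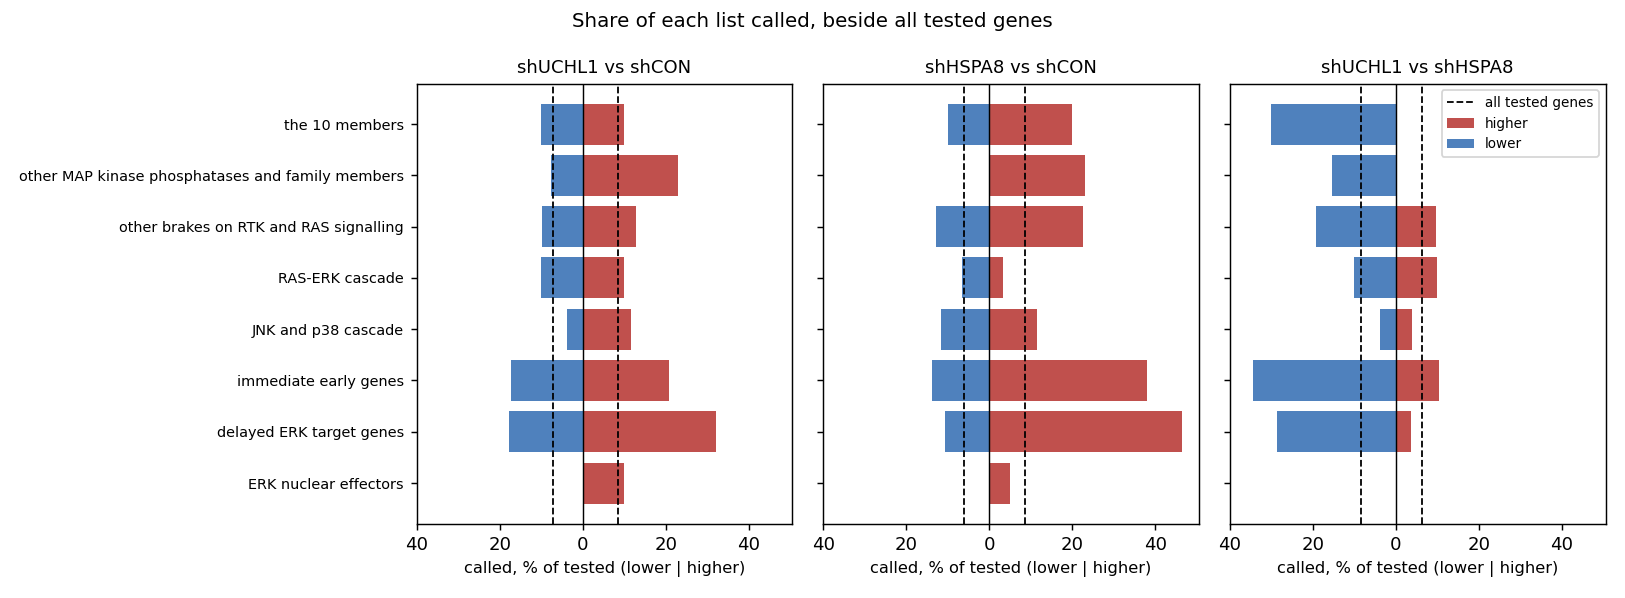
Share of the tested genes of each list called lower (left of 0) and higher (right of 0) in the 3 comparisons, in percent, with dashed lines at the shares of all tested genes. Against shCON, the bars for higher calls of the immediate early genes and delayed ERK targets are longer than those of the RAS-ERK, JNK and p38 and nuclear effector lists.

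EGR1, the zinc finger factor most used as an ERK readout, had 22.1 and 21.4 CPM in shUCHL1 and 107 and 108 CPM in shHSPA8, against 26.9 and 28.5 CPM in shCON. It rose 3.88-fold in shHSPA8 (log2 fold change 1.95, SE 0.09, edgeR adjusted p = 5.11e-05). Between the knockdown lines EGR1 was 4.94-fold lower in shUCHL1 (-2.30, SE 0.10, edgeR adjusted p = 6.66e-05). In shUCHL1 against shCON its log2 fold change was -0.35 (SE 0.10, edgeR adjusted p = 0.0496), a call at the threshold that was lost in 11 of 15 alternatives, with an adjusted p of 0.0209 to 0.318. Among them were the fits without shUCHL1 replicate 1 or 2 (edgeR adjusted p = 0.277 and 0.318), without either shHSPA8 library (edgeR adjusted p = 0.0946 for both) and without shCON replicate 2 (edgeR adjusted p = 0.101). The levels of EGR1 thus stood in the same order over the lines as those of DUSP5 and DUSP6.

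NR4A1, an orphan nuclear receptor, had 3.48 and 3.66 CPM in shUCHL1 and 15.9 and 15.5 CPM in shHSPA8, against 4.18 and 5.08 CPM in shCON, a 3.39-fold rise in shHSPA8 (log2 fold change 1.76, SE 0.15, edgeR adjusted p = 0.000444). Further genes of the lists had different orders. KLF4, a pluripotency-related factor, rose 2.78-fold in shUCHL1, to 64.1 and 59.4 CPM, against 23.1 and 21.4 CPM in shCON, and was lower in shHSPA8, at 15.2 and 14.7 CPM. The shHSPA8 call of KLF4 (1.49-fold lower, edgeR adjusted p = 0.0146) was lost in 3 of 15 alternatives. These were the fit of only the 4 libraries compared and leaving out either shHSPA8 library. CYR61, a matricellular gene, had 423 and 440 CPM in shUCHL1 and 605 and 572 CPM in shHSPA8, against 809 and 870 CPM in shCON. TNFAIP3, an inhibitor of NF-kB, rose 2.65-fold in shUCHL1 and 4.19-fold in shHSPA8.

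Several of the delayed targets named by the rule encode secreted proteins. The cytokine LIF had 101 and 98.4 CPM in shUCHL1 and 351 and 350 CPM in shHSPA8, against 74.6 and 80.7 CPM in shCON, a 4.52-fold rise in shHSPA8 (log2 fold change 2.18, SE 0.09, edgeR adjusted p = 2.79e-05). The LIF call in shUCHL1 (log2 fold change 0.36, SE 0.08, edgeR adjusted p = 0.0301) was lost in 8 of 15 alternatives, among them leaving out any 1 library other than shCON replicate 2 (edgeR adjusted p from 0.0585 to 0.293). IL11, a related cytokine, rose 5.52-fold in shHSPA8, to 216 and 188 CPM, against 31.7 and 41.5 CPM in shCON. The neuropeptide precursor VGF had 60.8 and 64.1 CPM in shUCHL1 and 380 and 327 CPM in shHSPA8, against 166 and 215 CPM in shCON. VGF fell 3.05-fold in shUCHL1 (log2 fold change -1.61, SE 0.14, edgeR adjusted p = 0.000725) and rose 1.85-fold in shHSPA8 (0.89, SE 0.14, edgeR adjusted p = 0.006). The EGF family ligand TGFA fell in both lines, by 1.58 in shUCHL1 and by 1.91 in shHSPA8 on the log2 scale.

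**Figure D5:**
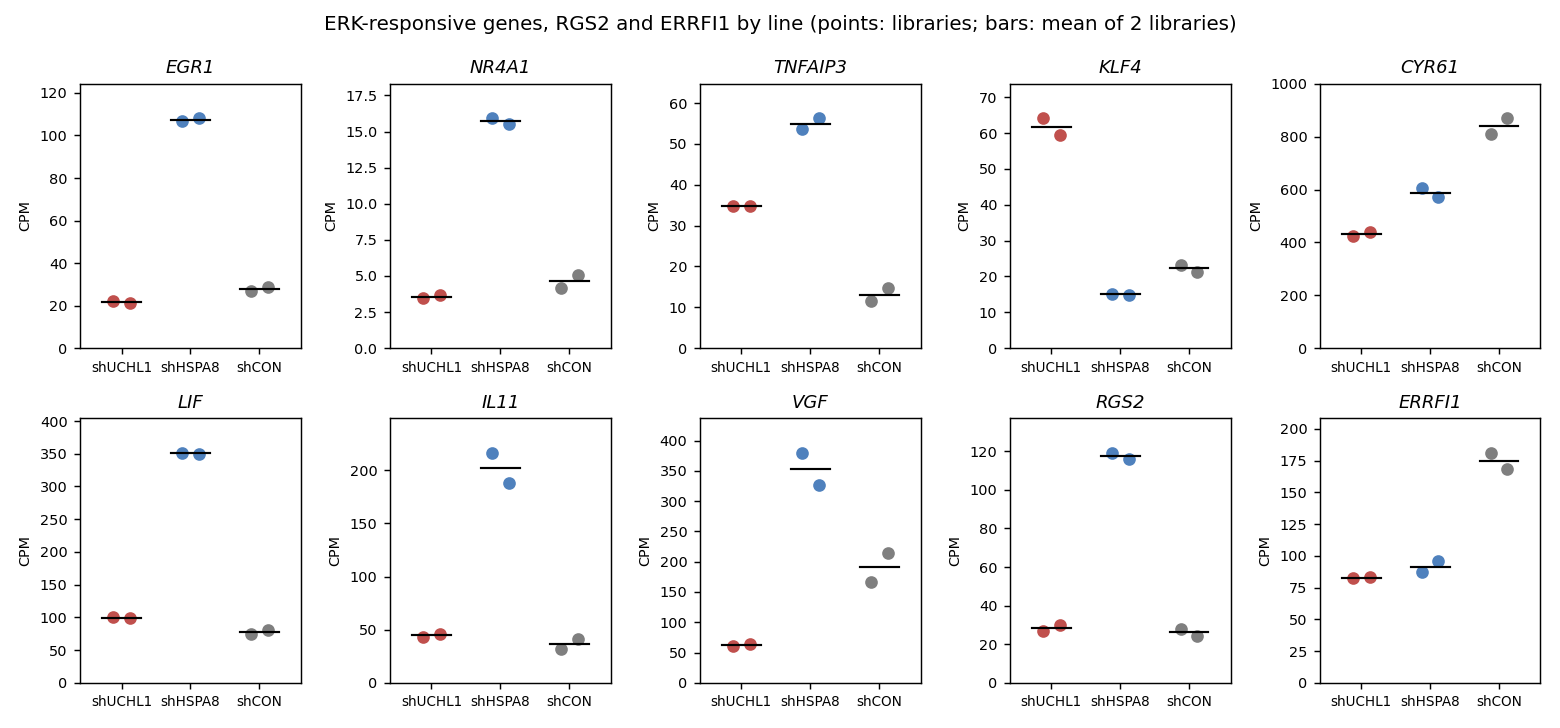
CPM of 10 ERK-responsive or feedback genes outside the members on linear axes from 0, with 1 point per library and a bar at the mean of the 2 libraries, in shUCHL1, shHSPA8 and shCON from left to right. EGR1, NR4A1, TNFAIP3, LIF, IL11, VGF and RGS2 are highest in shHSPA8, KLF4 is highest in shUCHL1, and ERRFI1 and CYR61 are highest in shCON.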

How the data were processed

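Messenger RNA was sequenced from 6 libraries of 3 goat cell lines, grouped by sample title. The submitters' processing notes name Trimmomatic 0.36; aligner, counting tool, build and strand setting: not given in the sources used here. For each library the authors deposited read counts and FPKM values, per the file headers; of the 33229 entries 16599 carry values. Between 1014 and 1117 genes per library have fractional counts, so the deposited read counts were treated like expected counts (estimates) and rounded. The authors' deposited table also holds log2 ratios of pairs of lines and p-values (test and any adjustment not stated). Names were checked by ID against RefSeq's ARS1.2 gene list, which held all 16599; no coordinates or sequences are given.

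The test was edgeR's quasi-likelihood test (edgeR 4.0.16, R 4.3.3) after filterByExpr and TMM scaling on all 6 libraries with group as the only term, and Benjamini-Hochberg adjustment over 12665 genes per comparison at 0.05. The SE is the log2 fold change divided by the square root of F. Alternatives were DESeq2 1.42.0, other scalings and filters, unrounded counts, 4-library fits, a replicate block, a length correction added after seeing the data, and leaving out each library. The members and gene lists were chosen with earlier results of these data known. From each list, called genes with the lowest p were named (up to 3 per direction against shCON, 2 between the knockdown lines); not all are described, and EGR1 and LIF in shUCHL1, TRIB1, TRIB2 and VGF in shHSPA8, ETV4 and ETV5 were chosen after their values were seen. Differences at these depths with 2 libraries per line carry the SE given; a p that misses the threshold does not show equal levels.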

Additional observations from a re-analysis of the deposited data

How the results depend on the processing

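With 2 libraries per line and a shared estimate of the spread, counts of calls moved with the libraries kept. Without 1 library in turn, the number of the 10 genes called ran from 1 to 3 in shUCHL1 against shCON, was 2 in every case in shHSPA8 against shCON, and ran from 1 to 5 between the knockdown lines; over all genes it ran from 528 to 2615, from 920 to 2416 and from 257 to 3083. A lone library was assumed to vary like the other lines. A mean of at least 1 CPM left 1 of the genes called in shUCHL1, because DUSP4 was no longer tested. Between the knockdown lines, 5 were called with the length correction and 5 in the fit of only the 4 libraries compared, against 3. Over all genes, that 4-library fit called 1104 in shHSPA8 against shCON and 3116 between the knockdown lines, and the length correction called 2887 between them, against 1859 and 1843; the cause was not tested. Scaling by library size alone gave 1368 higher of 2009 genes in shUCHL1 against shCON (1082 of 1987 with TMM) and 1339 higher of 2079 between the knockdown lines (785 of 1843 with TMM).

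The sample numbers are not said to mark a shared culture or day. The deviations of replicate 1 from its line's mean correlated over genes by -0.225 between shUCHL1 and shHSPA8. The correlation was 0.234 between shUCHL1 and shCON and -0.537 between shHSPA8 and shCON. Whether libraries of different lines share a culture or day was not tested. With a replicate block, edgeR called 1230 genes for shUCHL1 and 1131 for shHSPA8 against shCON, and 923 for the direct comparison; of the members' calls SPRY1 in shHSPA8 alone was lost.

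Among the members, log2 fold changes ran through 0 without 1 library for SPRY2 in shUCHL1 (-0.0115 to 0.0566) and SPRED1 in shHSPA8 (-0.213 to 0.403); neither was called there. So did ETV5 in shUCHL1 (-0.113 to 0.0288) and between the knockdown lines (-0.0153 to 0.321) and ETV4 in shHSPA8 (-0.109 to 0.198); ETV5 in shUCHL1 was also 0.052 with library size only and 0.0071 with the length correction. Of 85 named calls outside the members, 47 were kept in all alternatives and 38 were lost without at least 1 library. At this depth DUSP4, DUSP9 and DUSP22 rest on few counts.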

Other observations

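The ETS factors ETV4 and ETV5, transcribed in response to FGF and ERK signals in many tissues and read as such beside SPRY4 and DUSP6, were singled out after their values were seen. ETV4 had 12.6 and 14.6 CPM in shUCHL1 and 18.7 and 15.5 CPM in shHSPA8, against 14.9 and 18.2 CPM in shCON. Its log2 fold change was -0.28 (SE 0.16, edgeR adjusted p = 0.306) in shUCHL1 and 0.05 (SE 0.16, edgeR adjusted p = 0.882) in shHSPA8. ETV5 had 13.1 and 11.9 CPM in shUCHL1 and 9.99 and 12.6 CPM in shHSPA8, against 13.3 and 12.2 CPM in shCON, with log2 fold changes of -0.03 (SE 0.15, edgeR adjusted p = 0.935) and -0.17 (SE 0.16, edgeR adjusted p = 0.514). Neither gene was called in any comparison under any alternative run, which does not show equal levels.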
